A study of Mus musculus with 10 samples.

Results

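The nuclear-encoded genes of the mitochondrial respiratory chain were described in sorted cells of the mouse small intestine. Members were chosen by name, as rows of the count tables that start with Nduf, Sdha to Sdhd, Uqcr, Cox4 to Cox8 or Atp5, without pseudogene names, and that had at least 10 counts in at least 2 libraries. Of 35006 rows, 93 had such a name and 85 passed the count minimum, against 13671 rows of all genes that passed the same minimum. The 85 members were 37 subunits of complex I, 4 of complex II, 8 of complex III, 12 of complex IV and 14 of complex V, together with 4 assembly factors of complex I, 2 of complex II, and 4 genes that the name pattern also takes and that have other roles.

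The cells came from crypts of EF1a-OSCAR mice of strain C57BL6/J, which carry OSCAR at the Rosa26 locus under the EF1a promoter, switched on by removal of a stop cassette with Vasa-Cre. OSCAR is a pair of fluorescent proteins, VeN90 and mCherry, built to read how active RNA polymerase II is in a living cell. It was read as the ratio of VeN90 to mCherry, and brightness was read as EF1a promoter activity. By the study's design, VeN90 dims where the kinase of the polymerase is active, so a high ratio stands for low polymerase activity. Live EpCAM+ cells were sorted into 5 populations with 2 libraries each, of 10000 cells per library: P1 (OSCARlow EF1alow), P2 (OSCARhigh EF1alow), P3 (OSCARlow EF1ahigh), P4 (OSCARmed EF1alow) and P5 (OSCARmed EF1ahigh). All 5 populations carry the reporter, and the study calls the libraries of a population biological replicates. The labels do not give the age of the mice or which mice gave which library, so p-values measure the spread between these libraries.

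The respiratory chain moves electrons from NADH and succinate to oxygen through complexes I to IV and uses the resulting proton gradient to make ATP in complex V. Most subunits are encoded in the nucleus and imported into mitochondria, and a few are encoded in mitochondrial DNA. In the intestinal epithelium, absorptive cells are rich in mitochondria, and stem and Paneth cells at the crypt base are known to differ in how much they rely on respiration.

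Counts on genes ranged from 3857612 to 6485823 per library, and Epcam, the sorting marker, was detected in all 10 at 577 to 1749 CPM. The libraries labelled P3 stood apart by their mitochondrially encoded counts, which took 59.2% and 36.1% of the total against between 1.04% and 5.19% in the other 8, and left 1574312 and 3003390 nuclear counts. Levels were therefore scaled on nuclear genes and are given as CPM, the usual read count per library size after TMM scaling. Alignments set aside as not unique numbered 46.0 and 42.9 per 100 gene counts in P2 and 74.8 and 53.8 in P3, against 14.3 to 20.5 in the other 6 libraries. The libraries labelled P2 carried the secretory markers, with 18.4% and 13.1% of nuclear counts on Lyz1 and a summed level of the 5 Paneth markers of 688384 and 454002 CPM, against 624 to 67863 CPM in the other 8. The summed markers of goblet cells (49997 and 106566 CPM, against 1633 to 10946), enteroendocrine cells (3101 and 7238, against 11.9 to 554) and tuft cells (521 and 891, against 15.0 to 185) were highest there too, while those of stem cells were highest in P4 and P5 (4199 to 7494, against 459 to 2915). Epithelial markers ranged from 4662 to 10895 CPM, and the 2 of 5 stromal markers that could be tested from 1.55 to 61.3. The libraries of P1 had the highest sums of enterocyte markers (31404 and 25863 CPM over 5 genes, against 988 to 16886 in the other 8) and of lymphocyte markers (748 and 223 CPM over 5 genes, against 0.761 to 128 in the other 8), and Cd3e, which defines T cells, was at 0 in 6 of the 10 libraries, of P2, P3, P4 and P5. By mean log2 CPM of the 5 enterocyte genes, replicate 1 of P3 (11.3) lay between the libraries of P1 (11.6 and 11.1). The study's own description places the secretory markers in another gate than P2, namely P3, while these files hold them in the libraries labelled P2. If the labels were crossed, values given here for P2 would belong to the P3 gate and the reverse, which cannot be told apart from these files. Every direction for P2 or P3 is given by label and no library was renamed. In bulk libraries such as these, fewer cells of a type and less RNA per cell cannot be told apart.

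Promoters of some members are shown first. The motif shares given with them are over the windows of all members, lower in P2 or not, beside those of all RefSeq genes, tested here or not. RefSeq windows of build GRCm38.p6, from 250 bases before to 50 bases after the start, were found for 73 of the 85 members. The palindromic core of sites of the factor NRF1, spelled out in capitals in the Atp5k line, stood in 6.33% of the 79 member windows and in 0.971% of all 32851 windows. The motif CCGGAAG of ETS factors such as GABP stood in 24.1% against 8.86%, AAGATGGC of YY1 in 15.2% against 2.75%, TCAAGGTCA of ERR factors in 2.53% against 0.423%, and the GC box GGGCGGG of Sp1 in 34.2% against 25.6%. All were searched on both strands, and TGCGCA, a part of many NRF1 sites that can overlap the palindrome by some letters, stood in 24.1% against 7.76%. The following lines give the 120 bases before the start, 5′ to 3′ on the minus strand, for 1 called member each of complexes II to V and for Ndufa1, a complex I subunit whose mean was not lower in P2 than in P4. A match in these bases was among the conditions for choosing the members of complexes II to V. No called member of complex I met the conditions, and Ndufa1 was added without them. Capitals mark a match to the NRF1 palindrome, the ETS letters or the YY1 letters (CTTCCGG is CCGGAAG on the other strand), while matches to the other motifs are left in lower case. They lie at chr9:50603850-50603969 (Sdhd), chr4:116075071-116075190 (Uqcrh), chr5:115348959-115349078 (Cox6a1), chr5:108434400-108434519 (Atp5k) and chrX:37191239-37191358 (Ndufa1).
Sdhd: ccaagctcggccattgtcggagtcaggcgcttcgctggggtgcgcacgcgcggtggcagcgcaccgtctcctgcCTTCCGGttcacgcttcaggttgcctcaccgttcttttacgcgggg
Uqcrh: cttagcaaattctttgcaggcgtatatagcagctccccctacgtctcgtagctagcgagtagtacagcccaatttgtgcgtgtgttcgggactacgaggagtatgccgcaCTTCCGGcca
Cox6a1: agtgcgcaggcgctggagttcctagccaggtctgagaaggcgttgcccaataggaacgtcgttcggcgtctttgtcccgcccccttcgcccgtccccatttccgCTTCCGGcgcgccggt
Atp5k: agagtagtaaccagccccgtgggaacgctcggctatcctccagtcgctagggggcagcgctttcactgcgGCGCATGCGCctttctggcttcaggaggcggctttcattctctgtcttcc
Ndufa1: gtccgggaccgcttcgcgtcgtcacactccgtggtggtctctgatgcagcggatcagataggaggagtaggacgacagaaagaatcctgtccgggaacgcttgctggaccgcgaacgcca
The match in capitals lay 46 bases before the start in Sdhd, 10 in Uqcrh, 16 in Cox6a1 and 50 in Atp5k, and none of the NRF1, ETS or YY1 letters was in the Ndufa1 stretch. A match of letters is a description and not a measured site. Whether members that fell in P2 have more matches than the other members was not tested.

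The members as a group were lowest in P2 and highest in P1 and P3. They took 0.356% and 0.477% of nuclear counts in P2, against 2.01% to 2.31% in P1, P4 and P5 and 2.77% and 2.81% in P3. By library, the summed level was 25552 and 24468 CPM for P1, 6337 and 7706 for P2, 25100 and 21782 for P3, 16480 and 16551 for P4, and 17023 and 16061 for P5. The means were 25010 ± 767 CPM for P1, 7022 ± 968 for P2, 23442 ± 2346 for P3, 16515 ± 50.3 for P4 and 16542 ± 680 for P5 (SD, n = 2 each). P2 lay below every other population and P4 and P5 differed by less than their spread. By mean level, 82 of the 85 members were lowest in P2, 2 were lowest in P1 (Ndufaf4 and Sdhaf1) and 1 in P4 (Ndufa1), while 43 were highest in P3 and 40 in P1. Both P2 libraries lay below all other 8 libraries for 75 members, an order that 14% of all 13887 genes tested showed. Both P1 libraries lay above the other 8 for 26 members (18.5% of all genes) and both P3 libraries for another 26 (4.47% of all genes). Over the 5 populations together, 65 of the 85 members passed the joint test of edgeR's quasi-likelihood method at an adjusted p under 0.01, against 35.3% of all genes. Without the P2 libraries in the model, 16 members passed, against 2021 of all genes (15%).

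**Figure D1:**
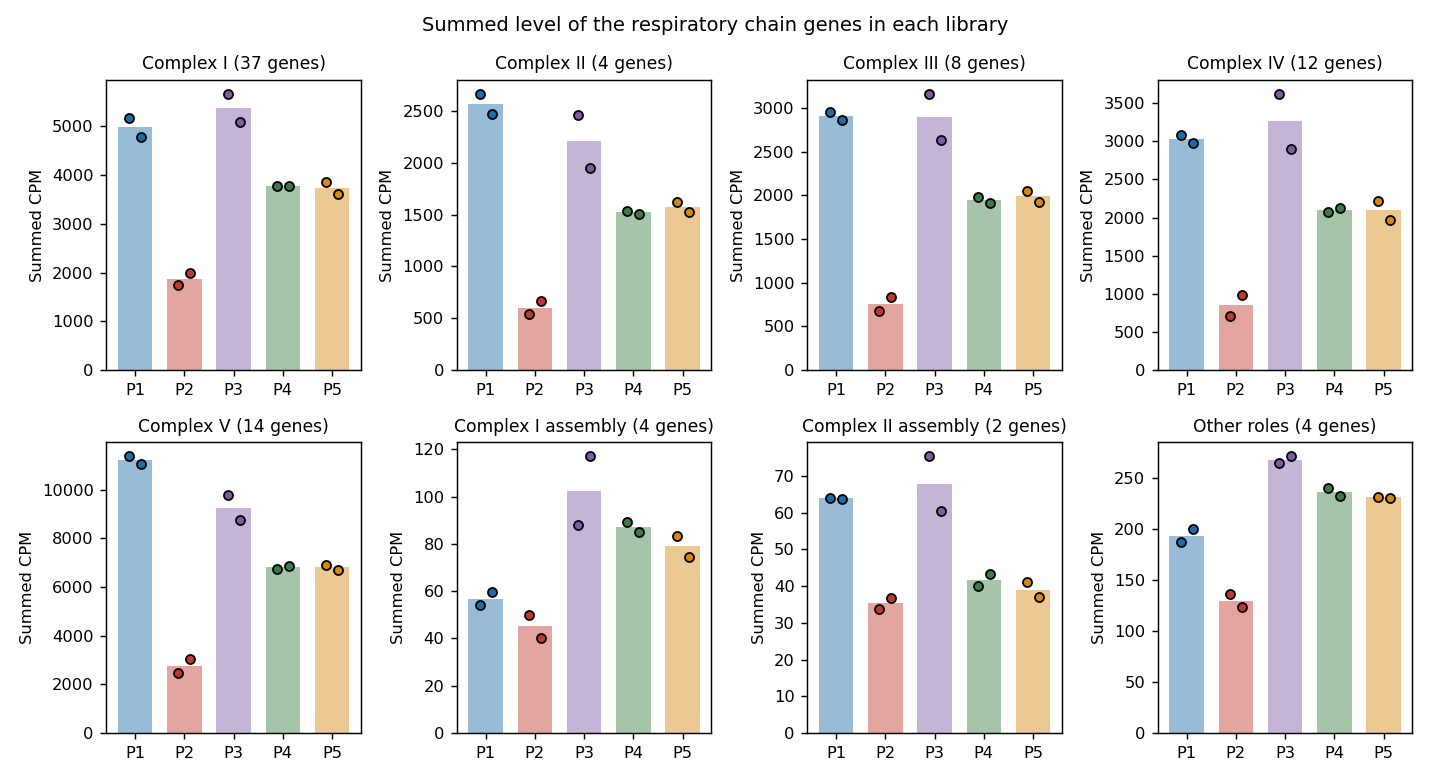
Summed level of each group of respiratory chain genes, as CPM of nuclear genes after TMM scaling, on axes that start at 0. Points are the 2 libraries of each population and bars their mean; in complexes I to V both libraries labelled P2 lie below the other 8.

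Complex V subunits were the largest part of the summed level in every library. They took between 38.5% and 45.2% of the members' total, complex I between 19.5% and 27.5%, complex IV between 11.3% and 14.4%, complex III between 10.7% and 12.6%, and complex II between 8.50% and 10.4%. Complex I took its highest share, 27.5% and 25.8%, in the libraries of P2 and its lowest, 20.2% and 19.5%, in those of P1. Per kilobase of annotated exon, the median subunit level in P4 was 63.3 CPM per kb in complex I, 155 in complex II, 192 in complex III, 197 in complex IV and 106 in complex V, and in P2 it was 31.8, 58.0, 72.8, 74.4 and 44.6 CPM per kb. The medians of complexes II to IV were thus higher per length than those of complexes I and V in both populations, while single genes of the complexes overlapped.

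P2 against P4 compares, by label, high with medium OSCAR signal at low EF1a activity. Of the 85 members, 45 fell in P2 and none rose, against 6.91% of all genes tested that were lower and 14.3% that were called in either direction. The median log2 fold change of the members was -1.17 where that of all genes was 0.00, and the middle part of the members, between the quartiles, ran from -1.39 to -0.87 against -0.71 to 0.70 for all genes. By complex, 17 of 37 members of complex I passed, 4 of 4 of complex II, 5 of 8 of complex III, 7 of 12 of complex IV and 10 of 14 of complex V, with median log2 fold changes of -0.96, -1.33, -1.11, -1.42 and -1.34. None of the 6 assembly factors passed. Both libraries of P2 lay below both of P4 for 81 members, an order that 35.5% of all genes showed. The count rested on all libraries compared, since 3 members passed without either library of P4, 5 without replicate 1 and 21 without replicate 2 of P2, while the median stayed between -1.32 and -1.01 with any library left out. With library size as the only scaling, 81 members passed, against 5466 of all 13887 genes, and the median of all genes was itself -1.10. The Paneth markers differed between the same libraries (688384 and 454002 CPM in P2 against 624 and 1014 in P4), as did the alignments set aside as not unique, and the part of either was not tested.

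Complex I is the entry of electrons from NADH, and 17 of its 37 members fell in P2 against P4. Ndufa5, an accessory subunit (mm9 chr6:24468666-24478013), was at 52.9 and 47.1 CPM in P4, 15.8 and 18.7 in P2, and 92.7 and 87.6 in P1. It was therefore both lower in P2 (log2 fold change -1.53 ± 0.19 (SE), edgeR adjusted p = 0.00103) and higher in P1 (0.85 ± 0.18, edgeR adjusted p = 0.00591) than in P4, and had the lowest p of complex I over the 5 populations (edgeR adjusted p = 0.00026). The call for P2 was lost without replicate 1 of P4 (edgeR adjusted p = 0.0109) and kept without any other library. Ndufa8 and Ndufb5, 2 further accessory subunits, came next, with Ndufa8 between 38.0 and 40.5 CPM in P2 and between 79.7 and 152 elsewhere. Ndufb5 was at 50.1 and 53.6 CPM in P2 and between 127 and 190 elsewhere. Its exons overlap Mrpl47 on the opposite strand, so reads within the overlap could not be assigned to either gene.

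Not every complex I gene followed this order. Ndufa1, a small subunit of the membrane arm encoded on the X chromosome (mm9 chrX:34727583-34731158), was at 39.2 and 56.2 CPM for P2, 44.2 and 39.1 for P4, 50 and 37.3 for P5, 80.5 and 60.5 for P3, and 146 and 98.5 for P1. The libraries of P2, P4 and P5 overlapped, and only P1 and P3 stood above them. The log2 fold change of Ndufa1 was 0.20 ± 0.28 for P2 against P4 (edgeR adjusted p = 0.643) and 1.56 ± 0.28 for P1 against P4 (edgeR adjusted p = 0.00294). Ndufa6, an accessory subunit of the same complex, was at 91.5 and 110 CPM in P2 and 132 and 103 in P4, ranges that also overlapped, and at 327 and 279 in P1. Ndufa4, named after complex I and found with complex IV in later work, was at 113 and 126 CPM for P2, 247 and 241 for P4, and 448 and 332 for P1, and it fell in P2 against P4 (log2 fold change -1.03 ± 0.22, edgeR adjusted p = 0.00804). Its relative Ndufa4l2 did not reach the count minimum.

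Complex II, succinate dehydrogenase, also belongs to the TCA cycle and is encoded in the nucleus alone. All 4 subunits fell in P2 against P4. Sdha, the flavoprotein that oxidises succinate, was at 949 and 885 CPM for P1, 243 and 290 for P2, 1021 and 863 for P3, 694 and 701 for P4, and 678 and 682 for P5. Sdhb, the iron-sulphur subunit (mm9 chr4:140517118-140535108), was at 581 and 551 CPM for P1, 92.3 and 120 for P2, 475 and 397 for P3, 294 and 289 for P4, and 331 and 282 for P5. For both genes no library of P2 reached any other library, and for Sdhb, unlike Sdha, the libraries of P1 lay above all others. The log2 fold changes for P2 against P4 were -1.39 ± 0.24 for Sdha (edgeR adjusted p = 0.0032) and -1.46 ± 0.23 for Sdhb (edgeR adjusted p = 0.00219). Sdhc and Sdhd anchor the enzyme in the inner membrane. Sdhc ranged from 84.0 to 110 CPM in P2, 209 to 211 in P4 and 415 to 437 in P1, and Sdhd from 119 to 147, 305 to 339 and 614 to 699. Their log2 fold changes against P4 in P2 were -1.11 ± 0.22 (edgeR adjusted p = 0.00647) and -1.27 ± 0.25 (edgeR adjusted p = 0.00611).

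Complex III passes electrons from ubiquinol to cytochrome c. Its core proteins Uqcrc1 and Uqcrc2 had the largest falls of the complex in P2. Uqcrc1 (mm9 chr9:108838661-108851685) was at 146 and 183 CPM for P2, 522 and 531 for P4, 630 and 697 for P1, and 925 and 690 for P3, a log2 fold change of -1.68 ± 0.25 for P2 against P4 (edgeR adjusted p = 0.00183). Uqcrc2 was at 152 and 176 CPM in P2 and 542 and 507 in P4, a log2 fold change of -1.68 ± 0.22 (edgeR adjusted p = 0.00117), and its exons overlap those of another gene. No library of P2 came near those of P4, but the calls on both genes were lost without either library of P4, and that on Uqcrc1 also without replicate 1 of P2. Uqcrh, the hinge protein, and Uqcrb, which binds near the quinone site, had low joint p-values together with Uqcr11, a small subunit. Uqcrh ranged from 88.5 to 110 CPM in P2 and 229 to 249 in P4, and Uqcrb from 23 to 35.2 and 46.9 to 61.4, but Uqcrb did not pass the threshold between P2 and P4 (log2 fold change -0.89 ± 0.24, edgeR adjusted p = 0.0215) and has near-identical copies elsewhere in the genome.

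Complex IV reduces oxygen, and several of its subunits exist as tissue-specific pairs. In the families of Cox4i, Cox6a, Cox6b and Cox8, the widespread form was the one at high level. Cox4i1 ranged from 497 to 954 CPM outside P2 and was at 160 and 214 in P2, whereas Cox4i2 had 0 counts in all 10 libraries, which allows a share of up to 0.000191% of the nuclear counts of the smallest library and covers counting error only. Cox6a1 was at 79.8 and 129 CPM in P2 and between 260 and 549 elsewhere, and Cox6a2, the form of heart and muscle, had at most 4 counts in a library. Cox8a was at 133 and 169 CPM in P2 and between 278 and 443 elsewhere, while Cox8b and Cox8c had at most 6 and 5 counts. Cox6b1 was at 92.3 and 144 CPM in P2 and between 246 and 483 elsewhere, and Cox6b2, the form of testis, passed the minimum with levels between 0 and 7.30 CPM. Between P2 and P4, Cox4i1 and Cox6a1 fell, both with a log2 fold change of -1.47 (SE 0.25 and 0.28, edgeR adjusted p = 0.00322 and 0.00494). Cox6b1 and Cox8a had log2 fold changes of -1.10 ± 0.26 and -0.92 ± 0.21 and did not pass (edgeR adjusted p = 0.0122 for both).

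In the pair Cox7a1 and Cox7a2 both forms were expressed. Cox7a1, known as the form of heart and muscle (mm9 chr7:30969190-30971047), was at 95.2 and 116 CPM for P1, 3.39 and 11 for P2, 88.6 and 39.8 for P3, 37.6 and 21.9 for P4, and 55.4 and 31.3 for P5. Its libraries of P1 were the highest and those of P2 the lowest of all, and the replicates of all populations but P1 lay far apart, most of all in P2. It had the largest difference of any member, a log2 fold change for P2 against P1 of -3.81 ± 0.59 (edgeR adjusted p = 0.00105) that ran from -4.95 to -3.26 with 1 library left out. Its change between P2 and P4 (-1.97 ± 0.57) did not pass (edgeR adjusted p = 0.03). Cox7a2 was at 290 and 243 CPM for P1, 60.6 and 82.4 for P2, and 168 and 162 for P4, and fell in P2 against P4 (log2 fold change -1.21 ± 0.23, edgeR adjusted p = 0.00537). Cox7a2l, which helps join complexes III and IV, was flatter, between 72.4 and 76.1 CPM in P2 and between 116 and 162 elsewhere (P2 against P4 -0.83 ± 0.16, edgeR adjusted p = 0.00541). Cox5a, Cox6c and Cox5b had the lowest joint p-values of complex IV, and Cox5a ranged from 55.4 to 61.1 CPM in P2 and from 147 to 259 elsewhere. Cox6c was at 41.4 and 54.1 CPM in P2 and between 109 and 176 elsewhere, and fell in P2 against P4 (log2 fold change -1.37 ± 0.19, edgeR adjusted p = 0.00128). The exons of Cox5a and of Cox6c each overlap those of another gene on the opposite strand. Cox5b, which has near-identical copies elsewhere in the genome, was at 13.6 and 19.0 CPM in P2 and between 39.4 and 73.1 elsewhere (P2 against P4 -1.40 ± 0.22, edgeR adjusted p = 0.00223).

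Complex V holds the catalytic subunits of the ATP synthase and the c ring that turns with the protons. Atp5b, the catalytic beta subunit, was the most abundant member by CPM, at 862 and 1001 CPM for P2, 2267 and 2378 for P4, 2261 and 2284 for P5, 3487 and 2899 for P3, and 3581 and 3757 for P1. Its log2 fold change for P2 against P4, -1.32 ± 0.31, did not pass the threshold (edgeR adjusted p = 0.0124) although its libraries did not overlap. The c ring is made of 1 protein that comes from several genes, Atp5g1, Atp5g2 and Atp5g3. Atp5g3 (mm9 chr2:73746504-73749383) was at 1273 and 1265 CPM for P1, 185 and 248 for P2, 999 and 838 for P3, 573 and 591 for P4, and 679 and 573 for P5. Atp5g1 (mm9 chr11:95930166-95936984) was at 39.1 and 30.7 CPM for P1, 9.41 and 14.9 for P2, 57.5 and 72.1 for P3, 39.0 and 36.5 for P4, and 40.0 and 31.3 for P5. Both were lowest in P2, but Atp5g3 was highest in P1 and Atp5g1 in P3. Near-identical copies at 73 other loci cover 29.6% of the Atp5g1 transcript, so some of its reads could have been set aside as not unique. Without either library of P2 or of P4 the call on Atp5g1 was lost. Against P4, P2 had log2 fold changes of -1.43 ± 0.26 for Atp5g3 (edgeR adjusted p = 0.00412) and -1.61 ± 0.29 for Atp5g1 (edgeR adjusted p = 0.00363), and P1 had 1.12 ± 0.26 for Atp5g3 (edgeR adjusted p = 0.00805) and -0.11 ± 0.26 for Atp5g1 (edgeR adjusted p = 0.75). Atp5g2 had at most 9 counts in a library, and its whole transcript has near-identical copies elsewhere in the genome, so its reads could have been set aside as not unique. Among the other subunits, Atp5j2, Atp5h and Atp5o fell in P2 against P4. Atp5j2 was at 53.5 and 62.6 CPM in P2 and between 153 and 270 elsewhere (log2 fold change -1.45 ± 0.20, edgeR adjusted p = 0.00122). Atp5h, which has near-identical copies, was at 23.7 and 30.8 CPM in P2 and between 62.7 and 128 elsewhere (-1.33 ± 0.21, edgeR adjusted p = 0.00212). Atp5e, the small epsilon subunit, with 109 and 111 CPM in P2 and 162 and 152 in P4, did not pass (log2 fold change -0.51 ± 0.28, edgeR adjusted p = 0.203).

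**Figure D2:**
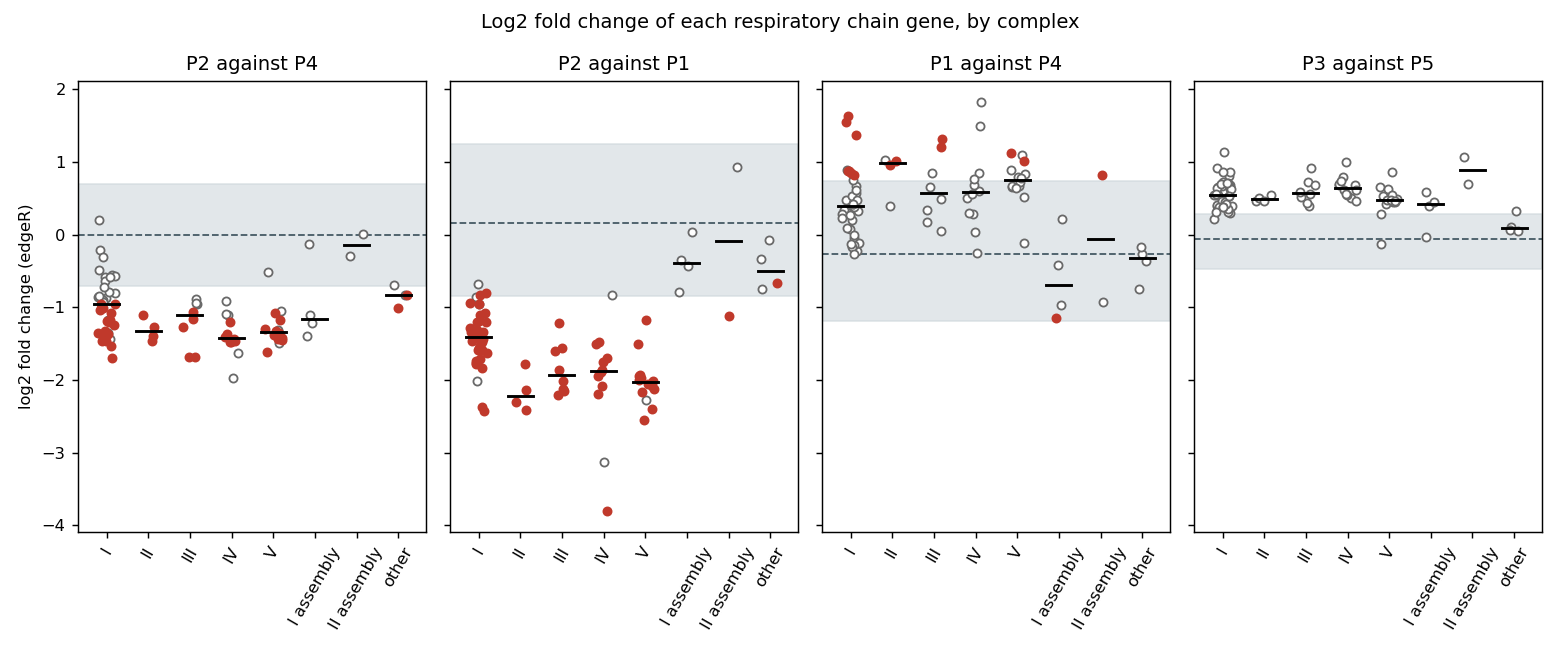
Log2 fold change of each of the 85 genes by complex in 4 comparisons, with genes at an edgeR adjusted p under 0.01 filled in red, the median of each group as a black bar, and the median and quartiles of all 13887 genes tested as a dashed line and grey band. The members lie below the median of all genes in P2, with medians of -1.17 against P4 and -1.56 against P1, and above it for P1 against P4 and for P3 against P5, where none passed the threshold.

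P2 against P1 compares, by label, high with low OSCAR signal at low EF1a activity and had the largest median difference of the 6 comparisons. Of the 85 members, 70 fell in P2 and none rose, against 13% of all genes that were lower and 28.5% called in either direction, with a median log2 fold change of -1.56 against 0.16 for all genes. Both libraries of P2 lay below both of P1 for 80 members, an order that 34.7% of all genes showed. The calls were 33 of 37 in complex I, 4 of 4 in complex II, 8 of 8 in complex III, 10 of 12 in complex IV and 13 of 14 in complex V. The largest differences among called members after Cox7a1 were in Atp5g3 (log2 fold change -2.55 ± 0.27, edgeR adjusted p = 0.00026), Ndufb3, an accessory subunit of complex I (-2.42 ± 0.30, edgeR adjusted p = 0.000425), Sdhb (-2.41 ± 0.23, edgeR adjusted p = 0.000206) and Atp5o, which joins the parts of the ATP synthase and whose exons overlap those of other genes (-2.40 ± 0.29, edgeR adjusted p = 0.000387). These 5 genes were called with any of the 10 libraries left out, and the count of members called stayed between 51 and 76. The enterocyte markers differed between the same libraries (988 and 2982 CPM in P2 against 31404 and 25863 in P1), as did the lymphocyte markers of P1 and the Paneth markers of P2, and the part of each was not tested.

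P1 against P4 compares low with medium OSCAR signal at low EF1a activity. In P1, 14 members rose and 1 fell, a share that is not above that of all genes called in either direction (23.8%, with 11.1% higher and 12.6% lower). The median of the members was 0.49 where that of all genes was -0.26, and 67 of the 85 had a positive log2 fold change against 5923 of the 13887 genes. The 5 largest called rises were in Ndufb3 (175 and 109 CPM in P1, 48.0 and 43.4 in P4, log2 fold change 1.64 ± 0.28, edgeR adjusted p = 0.00249), Ndufa1, Ndufa6 (1.37 ± 0.24, edgeR adjusted p = 0.00277), Uqcrb (138 and 132 CPM against 61.4 and 46.9, 1.32 ± 0.23, edgeR adjusted p = 0.00254) and Uqcrfs1, the Rieske iron-sulphur protein of complex III (606 and 586 CPM against 273 and 245, 1.20 ± 0.24, edgeR adjusted p = 0.00413). In each of them both libraries of P1 lay above both of P4, as they did for 65 of the 85 members and for 32.7% of all genes. Of complex II, Sdhb (0.96 ± 0.22, edgeR adjusted p = 0.00875) and Sdhc (1.02 ± 0.22, edgeR adjusted p = 0.00647) rose, and no member of complex IV passed. The count fell to 0 without replicate 1 of P1, replicate 1 of P4 or replicate 2 of P4, and to 2 without replicate 2 of P1. It also moved with the scaling, from 25 higher with DESeq2's size factors to 3 lower and none higher with library size alone, while the median of all genes moved from -0.05 to -0.78 and the members' median less that of all genes was 0.74 to 0.75 under both and under TMM. Of all genes, 3259 were called with DESeq2's size factors and 3974 with library size alone. The Paneth markers (20676 and 67863 CPM in P1 against 624 and 1014 in P4, 5 of 5 called higher) differed between the same libraries. So did the stem cell markers (544 and 860 CPM against 4931 and 7494, 3 of 5 called lower), the lymphocyte markers (4 of 5 called higher) and the enterocyte markers (1 of 5 called higher, 4 of 5 with a positive log2 fold change), and the part of each was not tested.

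P3 against P1 compares, by label, high with low EF1a activity at low OSCAR signal. Of the members, 3 rose in P3 and none fell, against 8.9% of all genes that were higher and 16.2% called in either direction. They were Sdhaf1 and Ndufaf4, described among the assembly factors, and Uqcr11, which was at 139 and 136 CPM in P3, 79.9 and 76.3 in P1 and between 68.9 and 76.2 in P4 and P5 (log2 fold change 0.81 ± 0.18, edgeR adjusted p = 0.00832). A near-identical copy elsewhere in the genome covers 85.4% of the Uqcr11 transcript. None of the 3 calls was made without any 1 library of P1 or of P4, and with any 1 library left out that on Uqcr11 was kept in 2 of 10 fits. Of the 10 other settings tried, 5 kept the call on Uqcr11, 5 that on Sdhaf1 and 9 that on Ndufaf4. The median of the members was 0.04 and that of all genes 0.03. The mitochondrially encoded share of 59.2% and 36.1% in the libraries labelled P3 differs between these groups too. So do the alignments set aside as not unique (74.8 and 53.8 per 100 gene counts in P3 against 14.3 and 18.7 in P1). The Paneth markers (3635 and 2065 CPM in P3 against 20676 and 67863 in P1) and the lymphocyte markers also differ, and the part of each was not tested.

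P5 against P4 and P3 against P5 gave no call. Between P5 and P4, which differ in EF1a activity at medium OSCAR signal, edgeR called none of the members and 0% of all genes, 0 members and 335 genes (2.41%) had an unadjusted p under 0.05, DESeq2 called no member, and the members' log2 fold changes ran from -0.44 to 0.55 with a median of -0.00. Between P3 and P5, which differ by label in OSCAR signal at high EF1a activity, edgeR again called 0% of all genes. Yet 83 of the 85 members had a positive log2 fold change, against 6289 of the 13887 genes. The median was 0.54 against -0.06 for all genes, and 49 members had an unadjusted p under 0.05 against 11.1% of all genes. DESeq2 called 4 members and 31 of all genes (0.223%). Both libraries of P3 lay above both of P5 for 75 members, an order that 16.4% of all genes showed. The mitochondrially encoded share, 59.2% and 36.1% in P3 against 5.19% and 3.96% in P5, differed too. So did the alignments set aside as not unique (74.8 and 53.8 per 100 gene counts in P3 against 20.5 and 18.9 in P5), and the part of either was not tested. The difference between the 2 EF1a contrasts, P3 less P1 and P5 less P4, passed in none of the members and in 2.7% of all genes. There 12 members had an unadjusted p under 0.05, against 4702 of all genes (33.9%).

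**Figure D3:**
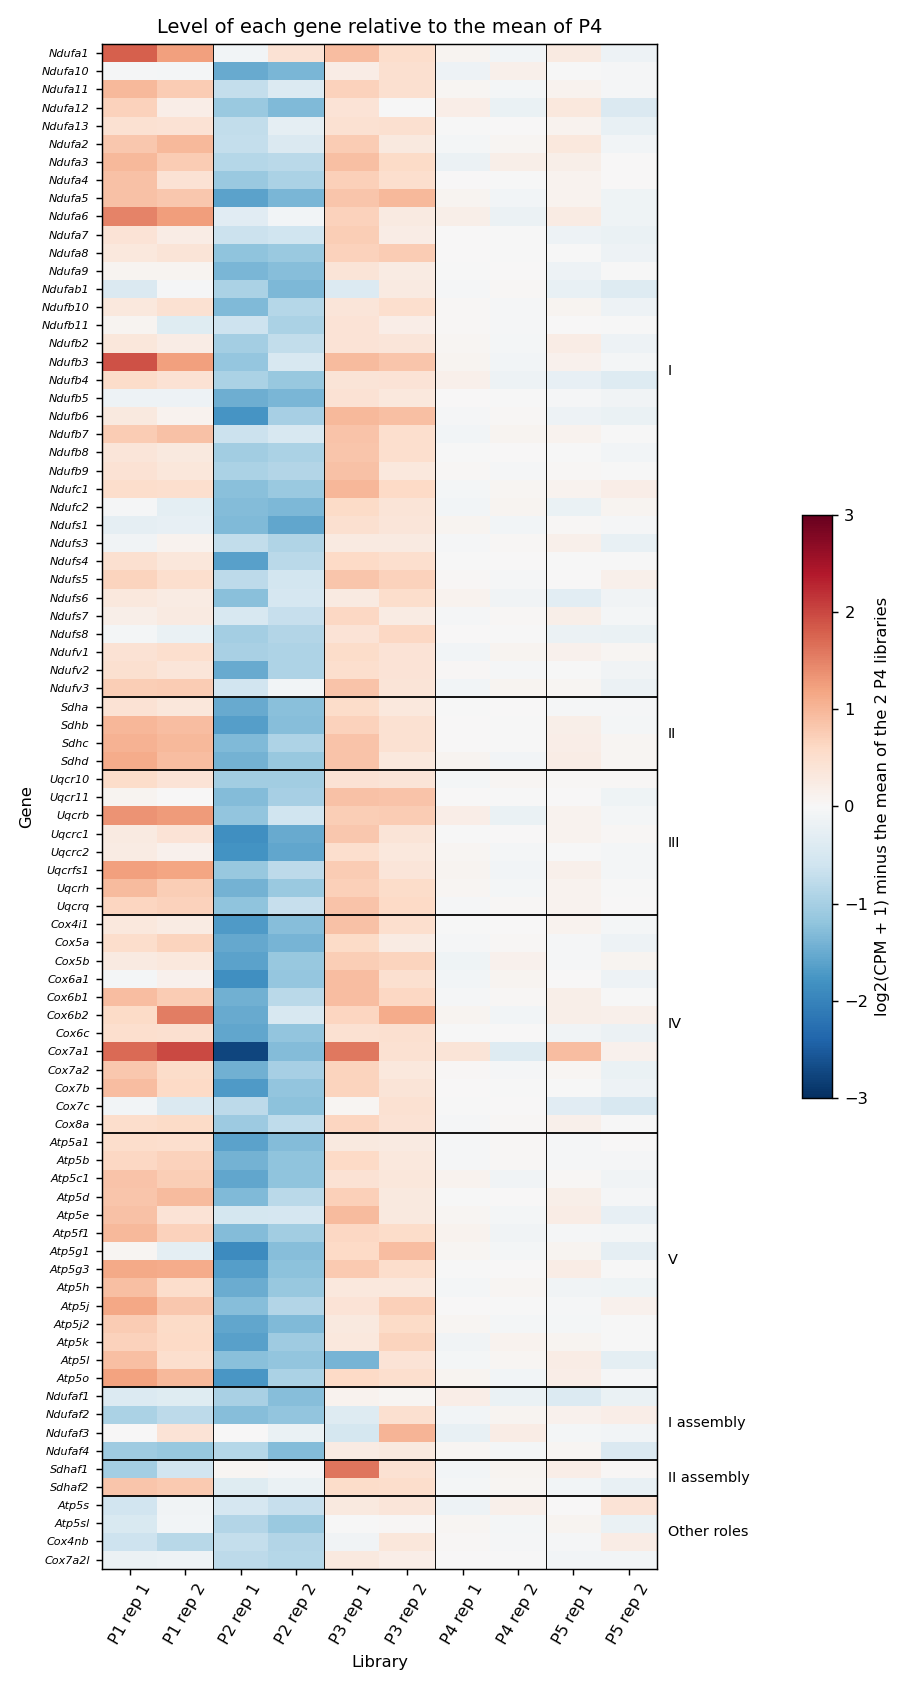
Level of the respiratory chain genes in each library, 1 row per gene, as log2(CPM + 1) less the mean of the 2 P4 libraries, ordered by complex, with red higher and blue lower than P4. The columns of P2 are blue for nearly all subunits, those of P5 are pale, and most subunits are red in P1, where Ndufaf4 and Sdhaf1 among the assembly factors at the bottom are blue.

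The assembly factors, which build the complexes without being part of them, were at low levels and differed in their order over the populations. Ndufaf4, an assembly factor of complex I (mm9 chr4:24825230-24832148), was at 17.7 and 16.8 CPM for P1, 20.7 and 14.9 for P2, 45.5 and 47.1 for P3, 39.9 and 36.3 for P4, and 39.8 and 27.8 for P5. Its P1 and P2 libraries overlapped and lay below those of the other 3 populations, with log2 fold changes of -1.14 ± 0.26 for P1 against P4 (edgeR adjusted p = 0.00761), 1.42 ± 0.26 for P3 against P1 (edgeR adjusted p = 0.00447) and -1.11 ± 0.26 for P2 against P4, which did not pass (edgeR adjusted p = 0.0137). With 1 library left out, the call for P1 against P4 was kept in 4 of 10 fits and that for P3 against P1 in 5 of 10. The former was kept in 5 of 11 other settings and lost with DESeq2's size factors, with mitochondrially encoded genes kept, with the length trend removed, without P2, without P3 and with P1 and P4 alone. Sdhaf1, which delivers iron-sulphur clusters to complex II (mm9 chr7:31106430-31107394), was at 3.25 and 4.74 CPM for P1, 7.91 and 7.44 for P2, 25.3 and 10.9 for P3, 7.12 and 8.11 for P4, and 8.87 and 7.87 for P5. It was lowest in P1 and rose in P3 against P1 (2.14 ± 0.48, edgeR adjusted p = 0.00946), and its exons overlap a gene on the opposite strand. The call was kept in 1 of 10 fits with a library left out and was lost with the replicate number added to the model. Sdhaf2, which adds the flavin to Sdha, had the order of the subunits, with 60.8 and 59.1 CPM for P1, 26.0 and 29.3 for P2, 50.1 and 49.6 for P3, 32.8 and 35.1 for P4, and 32.1 and 29.2 for P5. It rose in P1 against P4 (0.82 ± 0.18, edgeR adjusted p = 0.00725) and did not pass between P2 and P4 (-0.30 ± 0.19, edgeR adjusted p = 0.279). Ndufaf1 and Ndufaf2 were lowest in P2, at 8.72 to 10.9 and 4.52 to 4.88 CPM, and Ndufaf3 was between 9.21 and 29.0 CPM with its lowest and highest library both in P3.

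Of the genes with other roles, Cox4nb, now known as a subunit of a membrane protein insertion complex of the endoplasmic reticulum, was at 25.2 and 21.5 CPM in P1, 23.7 and 20.8 in P2, and between 36.8 and 49.9 in the other populations. Its P1 and P2 libraries overlapped, as those of Ndufaf4 did. Atp5s and Atp5sl, named after complex V and not subunits of it, were between 6.16 and 14.5 CPM and between 24.4 and 56.9 CPM, and Atp5sl fell in P2 against P4 (log2 fold change -1.02 ± 0.22, edgeR adjusted p = 0.00857).

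**Figure D4:**
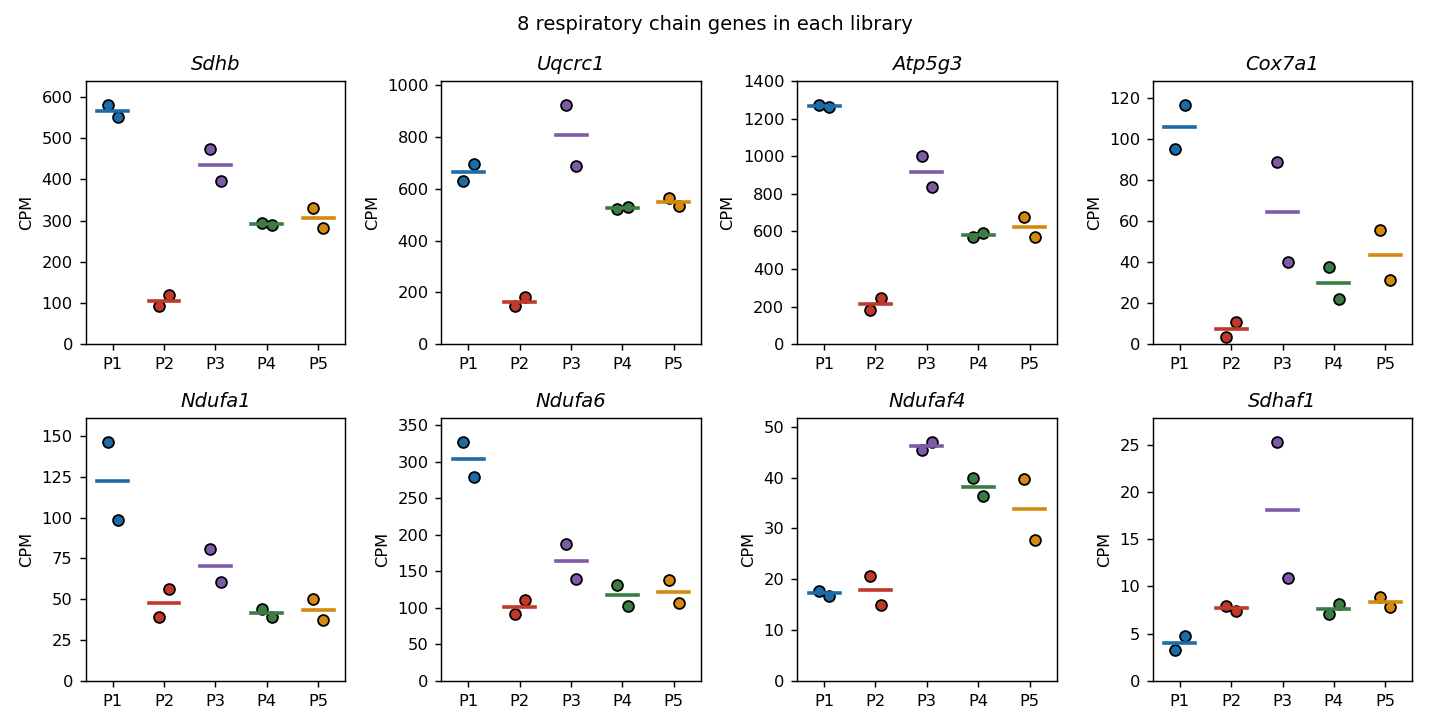
Level of 8 members in each library in CPM of nuclear genes, with a point for each library, a line for the mean of the 2 libraries, and axes that start at 0. Sdhb, Uqcrc1, Atp5g3 and Cox7a1 are lowest in P2, Ndufa1 and Ndufa6 overlap between P2 and P4, and Ndufaf4 and Sdhaf1 are low in P1.

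Other mitochondrial genes were read from lists beside the members. The electron carriers and partner proteins of the chain with other names fell in P2 against P4 in 5 of 8 genes with a median log2 fold change of -1.23, among them Cyc1, the cytochrome c1 of complex III (-1.68 ± 0.21, edgeR adjusted p = 0.00103), and Atpif1, the inhibitor of the ATP synthase (-1.74 ± 0.28, edgeR adjusted p = 0.00256). Of the TCA cycle and pyruvate dehydrogenase genes, 8 of 18 fell and none rose (median -1.11), and of the mitochondrial ribosomal proteins 24 of 78 fell and none rose (median -1.01). Of the assembly factors with other names, 2 of 23 fell and 1 rose, a share near the 14.3% of all genes called. Lrpprc, which stabilises mitochondrial transcripts, fell (-2.18 ± 0.25, edgeR adjusted p = 0.000733), as did Ecsit, a factor of complex I assembly (-1.21 ± 0.21, edgeR adjusted p = 0.00317), and Cox17, the copper carrier of complex IV, rose (0.99 ± 0.21, edgeR adjusted p = 0.00779). Of the glycolysis genes, 1 of 16 fell and 1 rose (median -0.71), again near the share of all genes. Gpi1, glucose phosphate isomerase, fell (-1.29 ± 0.21, edgeR adjusted p = 0.00236), while Hk1, a hexokinase, rose from 5.26 and 7.02 CPM in P4 to 32.8 and 66.7 in P2 (3.01 ± 0.52, edgeR adjusted p = 0.00313).

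In P1 against P4 the medians of the lists differed. Of all genes, 23.8% were called in this comparison, 11.1% higher and 12.6% lower, and the ribosomal proteins called, 14 of 78, were not above that share. The members and the partner proteins of the chain had positive medians (0.49 and 0.78), as did glycolysis (0.62, 6 of 16 higher and 1 lower), whereas the mitochondrial ribosomal proteins had a median of -0.30, close to the -0.26 of all genes, with 2 of 78 higher and 12 lower. With library size alone the median of the members was -0.034 and that of all genes -0.78. The TCA cycle genes were split, with Cs, Dlst, Sucla2 and Mdh2 of the 18 higher and Idh2 and Fh1 lower. Cs, citrate synthase, was at 1815 and 2193 CPM for P1 and 561 and 464 for P4, while Idh2 was at 88.5 and 57.5 for P1 and 174 and 153 for P4, so that the libraries of P1 lay above those of P4 for the first (log2 fold change 1.97 ± 0.35, edgeR adjusted p = 0.0029) and below for the second (-1.17 ± 0.23, edgeR adjusted p = 0.00432). In the list of 15 regulators of mitochondrial biogenesis and other transcription factors, Hnf4g rose in P1 and Ppargc1b, Pprc1, Polrmt and Myc fell. In P2 against P4, Ppargc1a, Ppargc1b, Tfam and Hnf4g of this list fell and none rose. Of all genes, 6.91% were lower in P2 against P4 and 14.3% were called in either direction. Ppargc1a, a coactivator of respiratory genes, was at 115 and 74.6 CPM for P1, 6.78 and 7.95 for P2, 47.8 and 30.9 for P4 and 45.5 and 22.5 for P3, and fell in P2 against P4 (-2.40 ± 0.45, edgeR adjusted p = 0.00454). Its relative Ppargc1b was at 6.31 and 8.03 CPM for P1, 11.3 and 6.16 for P2, and 36.5 and 37.3 for P4, low in P1 and P2 alike. Tfam, the packaging and transcription factor of mitochondrial DNA, fell in P2 against P4 (-1.40 ± 0.26, edgeR adjusted p = 0.00408).

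**Figure D5:**
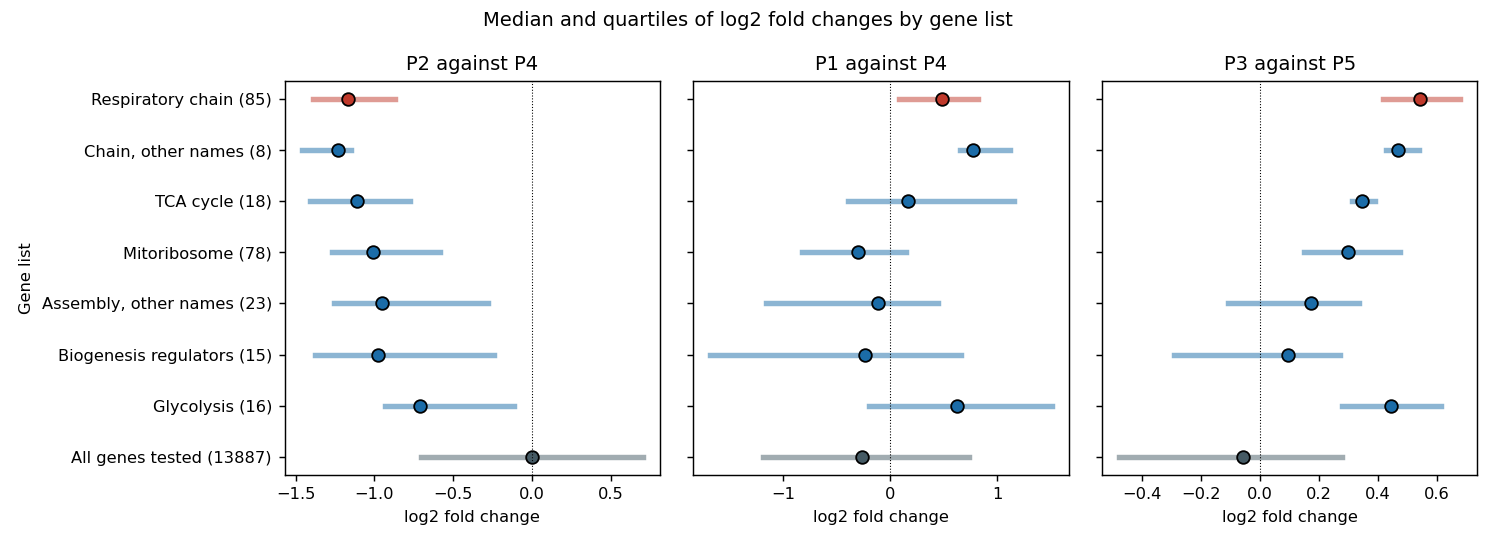
Median (point) and quartiles (line) of the edgeR log2 fold changes of the 85 respiratory chain genes, of 6 lists of other genes and of all genes tested, in 3 comparisons with separate horizontal scales. Every mitochondrial list lies below 0 for P2 against P4, with medians from -1.23 to -0.95, and for P1 against P4 the ribosomal proteins (-0.30) lie near all genes (-0.26) and the chain above them (0.49); under library size alone the chain moves to -0.034 and all genes to -0.78.

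The mitochondrially encoded mRNAs of the same complexes did not keep a fixed ratio to the nuclear ones. On the nuclear scale, the summed counts of the 13 mitochondrial mRNAs were 0.751 and 0.536 times the summed members for P1, 2.89 and 2.16 times for P2, 1.93 and 1.62 times for P4, and 2.60 and 1.95 times for P5. In the libraries labelled P3 the ratio was 51.0 and 19.6. For complex I alone, the 7 mitochondrial subunits had 1.26 and 0.945 times the level of the 37 nuclear ones for P1, 3.95 and 3.06 times for P2, 2.99 and 2.40 times for P4 and 68.9 and 27.6 times for P3. The replicates of P3 differed more from each other than those of any other population, and mt-Atp6 was at 0 in all libraries, so complex V was not compared.

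Members are short and abundant genes, and both properties were set beside the results for P2 and for P3 against P5. Their median exon length was 1334 bases against 3446 bases of all genes tested, and 52 of the 85 were in the shortest of 5 equal classes, in which all genes had a median log2 fold change for P2 against P4 of -0.31 and the members -1.16. In the most abundant class, which held 53 members, these medians were -0.05 and -1.17. For P3 against P5, the medians of all genes and of the members were 0.19 and 0.56 in the shortest class. In the most abundant class they were 0.10 and 0.53. With the trend on exon length removed in each library, a choice made after seeing the data, 44 members fell in P2 against P4 and 64 in P2 against P1. Some members share sequence or exon positions with other genes, where reads could have been left out of the count. A near-identical copy elsewhere in the genome was found for 17, and over at least 50% of the transcript for 8 (among them Uqcrb, Uqcr11, Cox5b and Atp5h), and 18 overlap exons of another gene, whose reads were counted without strand. Among the 55 members with neither, 29 fell in P2 against P4 and 47 in P2 against P1, and none rose.

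The count minimum left 8 of the 93 names outside. The weakest member inside it was Cox6b2, with 20 counts in its second-highest library, and Ndufb4 came next with 36. The strongest name outside was Atp5g2 with 8, followed by Cox8c and Cox6a2 with 4 each.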

How the data were processed

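RNA was measured by poly-A RNA-seq in the 10 libraries. The deposited values are read counts per gene, which the authors made with TopHat2 2.1.0, Bowtie and HTSeq 0.11.2 on mm9 after FastQC 0.11.5. Exons were counted without strand, and reads that did not align uniquely were not counted. The row without a gene name held 0.000192% to 0.000596% of counts and was left out, as were 206 ribosomal RNA names and, for scaling and tests, the 37 mitochondrially encoded names. Of 35006 row names, 33643 matched the annotation.

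Counts were TMM-scaled and fitted with edgeR 4.0.16's quasi-likelihood test in R 4.3.3 over all 5 populations with 5 residual degrees of freedom. Genes low in counts were removed with filterByExpr, 13887 genes were tested, and Benjamini-Hochberg adjusted p under 0.01 was called. DESeq2 1.42.0 was an alternative. Scripts were tested on simulated data. Near-identical copies were searched with blastn 2.17.0 (at least 75 bases at 98% identity). The members and gene lists were chosen with earlier results of these data known. Named genes were for each comparison and direction the 5 called members that changed most and whose libraries do not overlap, the 3 with the lowest joint p per complex, and, called or not, complex II, the paralog isoforms, the assembly factors and the genes with other roles. Atp5b, Atp5e and the genes of promoters shown were chosen after their values were seen. The values of 1 member that this rule names are not reported here. A count of 0 was read against 3 counts, which covers counting error only.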

Additional observations from a re-analysis of the deposited data

Results flagged for a closer look

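Of the names below the count minimum, which entered no comparison, 4 had a library above the 3 counts that a count of 0 allows. The highest counts were 6 for Cox8b in replicate 1 of P3, 5 for Cox8c in replicate 2 of P1, 4 for Cox6a2 in replicate 1 of P1 and 9 for Atp5g2 in replicate 2 of P3. Near-identical copies at 3 other loci cover 100% of the Atp5g2 transcript. With 2 libraries per population, no group was large enough to be searched for outlying samples. The difference between the EF1a contrasts at low and at medium OSCAR signal passed for none of the 85 members.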

How the results depend on the processing

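The fall of the members in P2 kept its direction under every setting tried, with medians between -2.27 and -1.01 against P4 and between -2.15 and -1.37 against P1, and no called member changed sign in any setting. The counts moved more. For P1 against P4 the count of 15 became 25 with DESeq2's size factors, 3 with library size alone, 41 with the DESeq2 test, 36 at an adjusted p under 0.05, 25 without P3, 24 with P1 and P4 alone and 27 without P2. Of all 13887 genes, 3301 were called there in the main fit, 3259 with DESeq2's size factors and 3974 with library size alone. The members' median of 0.49 became 0.70 (DESeq2's size factors), -0.034 (library size alone), 0.70 (DESeq2 test), 0.66 (without P3), 0.69 (P1 and P4 alone), 0.68 (without P2) and 0.69 with mitochondrially encoded genes kept. For P2 against P4 library size alone gave 81 calls, against 5466 of all 13887 genes, and a median of -2.27. The DESeq2 test gave a median of -1.08. For P2 against P1 the median was -1.67 with DESeq2's size factors and with its test, -2.15 with library size alone, -1.70 with mitochondrially encoded genes kept and -1.69 without P3. For P3 against P1 the count of 3 became 1 with DESeq2's size factors, with mitochondrially encoded genes kept and without P2, 10 with library size alone, 6 with the DESeq2 test, 11 at an adjusted p under 0.05 and 0 with P3 and P1 alone. Its median became -0.089 with DESeq2's size factors, -0.090 with its test, 0.45 with library size alone, 0.16 with the length trend removed and -0.11 without P2. For P3 against P5 there was 1 call without a filter on low counts and 4 with the DESeq2 test, and the median was 0.64 with mitochondrially encoded genes kept and 0.65 with the length trend removed. The joint count fell to 16 without P2. Removing the length trend and leaving out P2 were chosen after seeing the data, and the cause of these moves was not tested.

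With 1 library left out at a time, the count ran from 44 to 72 in the joint test, 0 to 24 for P1 against P4, 3 to 51 for P2 against P4, 51 to 76 for P2 against P1 and 0 to 2 for P3 against P1, and stayed 0 for P5 against P4 and P3 against P5. The medians ran from 0.44 to 0.65, -1.32 to -1.01, -1.76 to -1.37, -0.13 to 0.073, -0.05 to 0.05 and 0.47 to 0.61 for P1 against P4, P2 against P4, P2 against P1, P3 against P1, P5 against P4 and P3 against P5.

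The replicate block gave 68 joint calls, 17 for P1 against P4, 48 for P2 against P4, 69 for P2 against P1, 2 for P3 against P1, and 0 for the other 2 comparisons, and the call on Sdhaf1 for P3 against P1 was lost under it. Deviations of same-numbered samples correlated at -0.06 to 0.55 over the 10 pairs of populations. As only 8 of the 10 were above 0.1 and the labels give no shared origin, the numbers were not treated as pairs, and whether same-numbered libraries share an animal is not given. Depth limits P3 most, with 1574312 and 3003390 nuclear counts, and members near the count minimum.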
